A study of Mus musculus with 2 samples.

Results

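GA-aFuc, 1 of the study's human IgG1 Fc variants of an anti-mouse GITR antibody, which the authors' annotation lists as an agonist with enhanced Fc, was compared with no antibody inside each of the 58 cell clusters that the authors drew for CD45+ immune cells of MC38 tumours. All cells whose annotated treatment was GA-aFuc or Untreated were taken, 4695 and 4778 cells, together 9473 of 19210 annotated cells in 10 cell types. They came from 3 GA-aFuc and 3 Untreated mice. All mice of the series were of the genotype labelled hFcgR (human Fc receptor mice), and all carried tumours of MC38, a mouse colon carcinoma line, placed under the skin. Treated mice received 100 µg of antibody by intraperitoneal injection, 2 times at an interval of 3 days, the protocol gives PBS to mice without antibody, and tumours were taken 4 days after treatment. The same tumours were also studied under N297A (annotated as an agonist without Fc binding) and GITR/Syn GA-aFuc (annotated as a non-agonist with enhanced Fc binding), which served here to estimate the spread between mice and as further reference mice. The age, sex and tumour size of single mice are not given in the sources used here.

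Tnfrsf18 encodes GITR, a member of the tumour necrosis factor receptor family that costimulates T cells and is abundant on regulatory T cells and on activated T cells. An antibody to it can signal through the receptor, and through its Fc part it can also engage Fcγ receptors on macrophages, monocytes and NK cells, which can then remove the antibody-coated cell. Tumour macrophages and monocytes shift between states: interferon-γ induces the chemokines Cxcl9 and Cxcl10 and MHC class II, whereas interleukin-4, interleukin-13 and low oxygen induce arginase 1 (Arg1), which breaks down arginine.

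Cells were taken from 2 pooled libraries in which each mouse carried a hashtag antibody. The annotation gives the treatment but not the mouse, and each run of rising cell barcodes was read as 1 mouse: in library 2 the leading hashtag of 10476 of 10476 cells matched its run. Library 1 held GA-aFuc mouse 1 and Untreated mice 1 and 2, and library 2 held GA-aFuc mice 2 and 3 and Untreated mouse 3. A total of 34 barcodes occurred in both libraries, as separate cells. Shares of clusters were compared in all mice. Expression was compared in library 2 only, between 2 GA-aFuc mice and 1 Untreated mouse, so that for every gene the treatment and the 1 Untreated mouse cannot be told apart. Depth was close among the compared mice of library 2, with medians of 13084 and 10461 UMIs (unique molecular identifiers, the counted transcripts) per cell in GA-aFuc mice 2 and 3 and 12451 in the Untreated mouse, and mitochondrial shares of 2.03%, 1.68% and 1.85%. Of the annotated clusters, 4 (macrophage clusters 2, 39 and 45 and monocyte cluster 22) had no marker of their own class and 1 marker of another class among their 10 leading genes, and they are called by their number below, while counts by cell type keep the authors' annotation.

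The regulatory T cells formed a single cluster, cluster 50, and it was the one cluster whose share passed the test. Its leading genes were Tnfrsf4, Ikzf2, Areg, Icos, Ctla4, Tnfrsf18 and Foxp3, the last being the master regulator of these cells. It held 3, 2 and 1 cells in the GA-aFuc mice, or 0.209%, 0.116% and 0.0649% of each mouse's cells, against 11, 13 and 11 cells, or 0.741%, 0.852% and 0.622%, in the Untreated mice. Every GA-aFuc mouse lay below every Untreated mouse. The means were 0.130 ± 0.0733% and 0.738 ± 0.115% (SD, n = 3 each), a log2 difference of -2.12 ± 0.49 (edgeR quasi-likelihood test on cell counts of 12 mice with a library term, adjusted p = 0.0484, 1 of 58 clusters or 1.72% called). DESeq2 did not call it (adjusted p = 0.258). The edgeR call was lost in all but 1 of the fits that left out a compared mouse: without Untreated mouse 1 the adjusted p was 0.0488, and without any other compared mouse it lay between 0.0751 and 0.297, with log2 differences of -2.29 to -1.63. Within single libraries the log2 difference was -1.93 in library 1 and -2.78 in library 2, a sign that the lack of overlap already fixes. A share can fall because these cells were fewer or because others were more, and these data hold no absolute cell numbers.

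**Figure D1:**
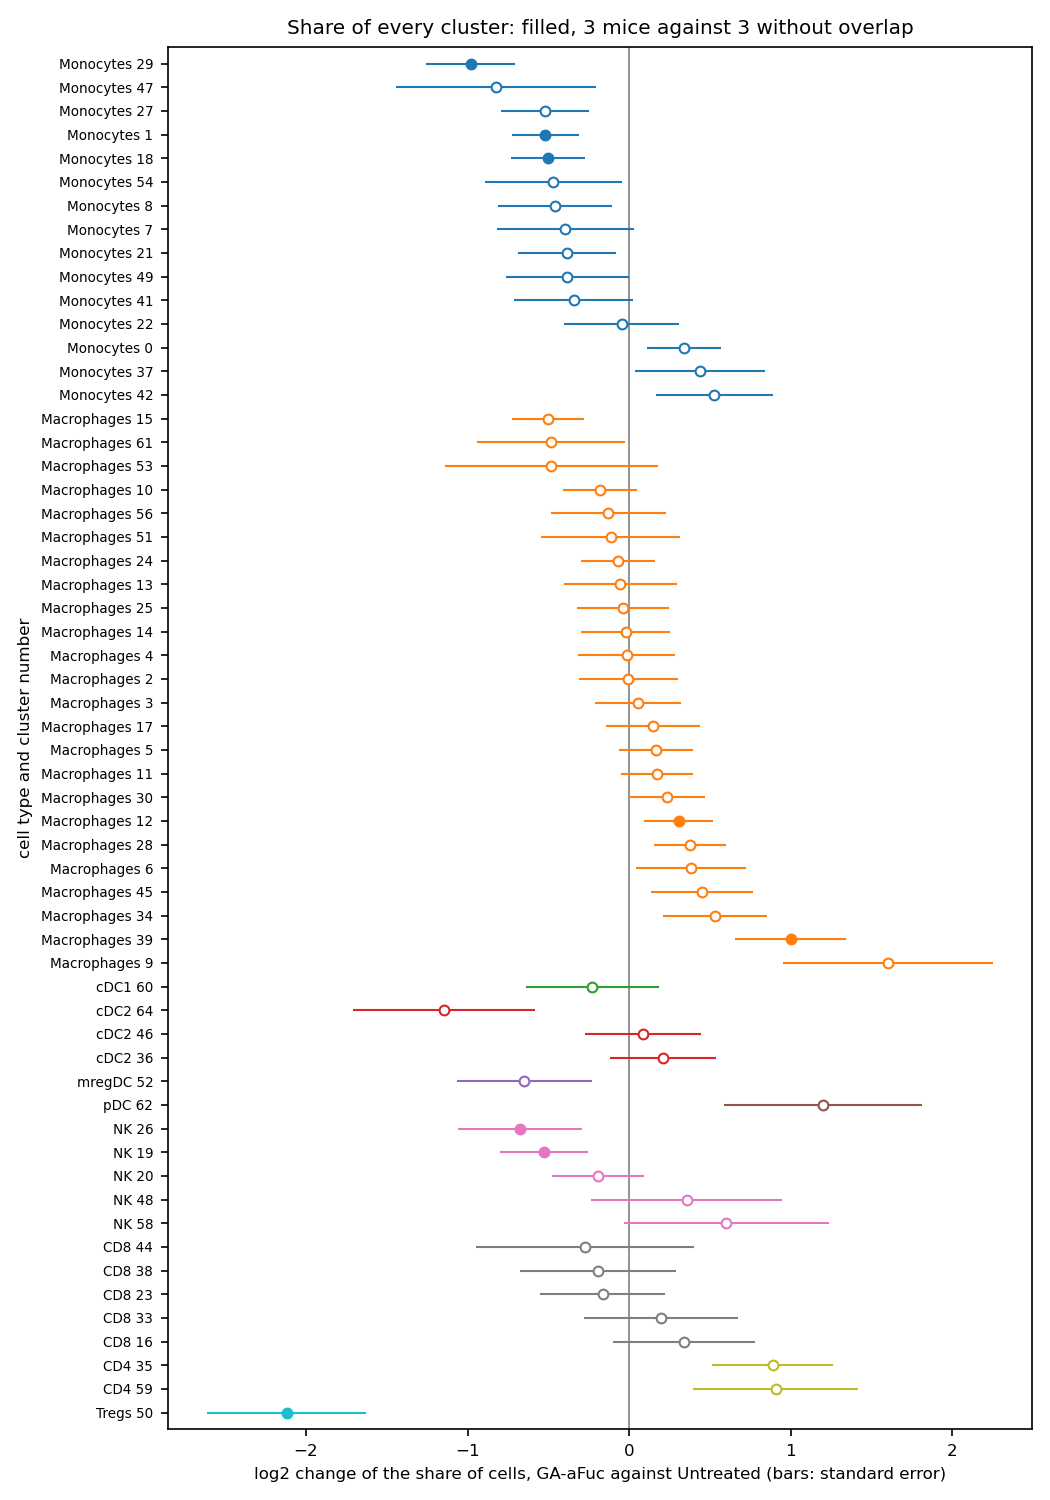
Log2 difference of the share of each of the 58 author clusters (GA-aFuc minus Untreated) with its standard error, grouped by cell type, where filled symbols mark the clusters whose 3 GA-aFuc and 3 Untreated mice do not overlap. Cluster 50 lies at -2.12, the lowest of all, and the monocyte clusters lie mostly below 0.

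Of the 58 clusters, 8 (13.8%) had no overlap between the 3 GA-aFuc and 3 Untreated mice, 2 of them higher and 6 lower, and 8 clusters had an unadjusted p under 0.05. Of the lower ones, 3 were monocyte clusters. Cluster 29, led by the chemokine gene Ccl3 and by Ccr2 and Ly6c2 (both typical of inflammatory monocytes), made up 1.26%, 0.813% and 1.23% of cells in GA-aFuc mice and 2.36%, 2.69% and 1.64% in Untreated mice. The groups were apart, but the log2 difference of -0.98 ± 0.28 did not pass (edgeR adjusted p = 0.105). Cluster 1, led by the decoy interleukin-1 receptor Il1r2 and by Il1b, stood at 3.00%, 2.84% and 3.31% against 3.70%, 4.79% and 4.30% (log2 -0.52 ± 0.21, edgeR adjusted p = 0.326). Cluster 18, with Il1r2, Ifitm1 and MHC class II genes, stood at 2.03%, 1.74% and 1.88% against 2.69%, 2.62% and 2.43% (log2 -0.50 ± 0.23, edgeR adjusted p = 0.353). Ifitm1, Rnf217, H2-Eb1 and H2-Ab1, which are among the leading genes of cluster 18, also differed in expression inside it. The size and the content of cluster 18 may therefore not be separate measurements, which was not tested. Among all 15 monocyte clusters, 12 had a negative difference, the lowest being -0.98 and the highest 0.53.

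Of the 5 NK clusters, 2 were lower without overlap. Cluster 19 made up 1.89%, 1.92% and 1.30% of cells in GA-aFuc mice and 3.16%, 2.36% and 2.32% in Untreated mice (log2 -0.53 ± 0.27, edgeR adjusted p = 0.409). Cluster 26 made up 1.61%, 1.74% and 0.455% against 2.90%, 1.84% and 1.75% (log2 -0.68 ± 0.39, edgeR adjusted p = 0.439), and without GA-aFuc mouse 3 its difference was -0.34. Neither difference passed the test. Klra8, the activating receptor Ly49H, was among the leading genes of both clusters and was itself lower when all NK cells of library 2 were tested together. These sizes may therefore not be independent of that change, which was not tested.

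The 2 clusters that were higher without overlap, clusters 39 and 12, are both annotated as macrophages. Cluster 39, led by the metallothionein Mt2, the heme-degrading enzyme Hmox1, the low-oxygen genes Ero1a and Egln3 and Arg1, made up 1.82%, 1.16% and 2.27% against 0.673%, 1.11% and 0.848% (log2 1.0 ± 0.35, edgeR adjusted p = 0.243). Arg1 rose inside other clusters, as given further on, so the size of a cluster that Arg1 leads may not be independent of that change, which was not tested. Cluster 12, led by Ccl8, Pf4, Folr2 and the mannose receptor Mrc1, made up 2.93%, 2.67% and 3.05% against 2.15%, 2.43% and 2.55% (log2 0.31 ± 0.21, edgeR adjusted p = 0.483). Mrc1 rose inside other clusters too, so the size of cluster 12 may likewise not be independent of that change, which was not tested. The 24 macrophage clusters had no common direction, with 12 higher and 12 lower. The largest positive difference, 1.602 ± 0.65 in cluster 9 (Hspa1a, Hmox1, Mmp12; edgeR adjusted p = 0.326), rested on 1 mouse: GA-aFuc mouse 3 gave 9.61% with 148 cells, the other 2 GA-aFuc mice 3.42% and 2.03%, and the Untreated mice 1.35%, 2.82% and 1.02%. Without GA-aFuc mouse 3 the difference was 0.74.

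**Figure D2:**
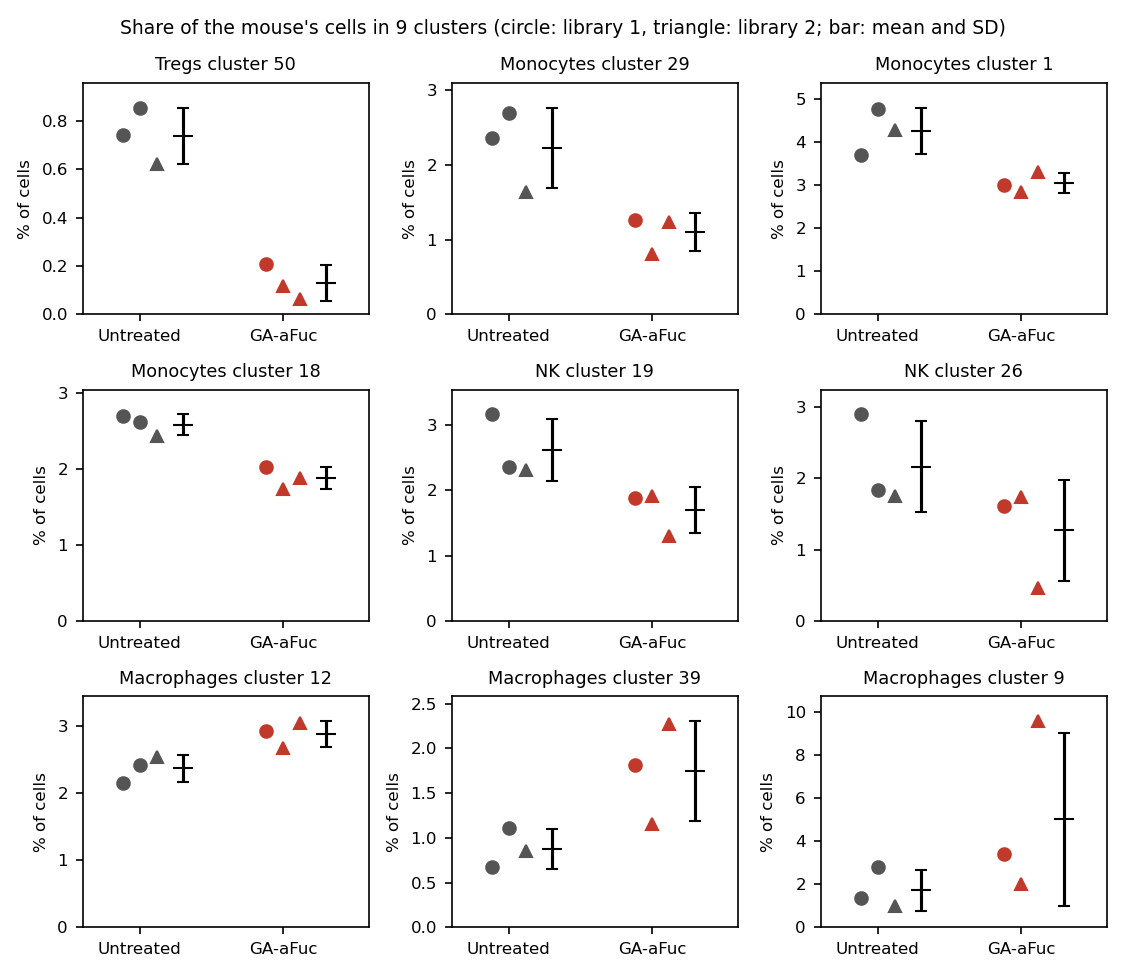
Share of each mouse's cells (percent, axis from 0) in the 8 clusters without overlap and in cluster 9, 1 symbol per mouse (circles for library 1, triangles for library 2) with the mean and SD of the group as a bar. In cluster 50 the GA-aFuc mice sit between 0.0649% and 0.209% and the Untreated mice between 0.622% and 0.852%, and in cluster 9 the high value belongs to 1 GA-aFuc mouse.

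Of the other cell types, the dendritic, CD4 and CD8 T cell clusters all overlapped between groups and did not pass. Plasmacytoid dendritic cells (cluster 62) stood at 1.20 on the log2 scale with 16 and 7 cells, and the 2 CD4 T cell clusters at 0.91 (cluster 59) and 0.89 (cluster 35). The type 2 dendritic cell cluster 64 stood at -1.15 with 5 and 10 cells, and the mature dendritic cells of cluster 52 at -0.65. The 5 CD8 T cell clusters lay between -0.27 and 0.34, 2 of them positive, and the single type 1 dendritic cell cluster at -0.23.

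Expression was tested in the 26 clusters with at least 20 cells in each of the 3 compared mice of library 2: 17 macrophage clusters, 7 monocyte clusters, CD8 T cell cluster 16 and NK cluster 19. UMI counts were summed per cluster and mouse. Of 198011 pairs of a gene and a cluster, 133 (0.0672%) passed, 112 higher and 21 lower in GA-aFuc, in 84 genes and 17 clusters. In 126 of the 133 both GA-aFuc mice lay on the same side of the Untreated mouse. In 86 they also lay apart from all 4 other mice of the library, 75 higher and 11 lower. The 133 pairs were picked by a test on these same levels, and such counts were not taken over all tested pairs. They describe the called pairs only and are no separate support. Unadjusted p was under 0.05 in 8810 pairs (4.45%), and DESeq2 called 18 pairs. The count moved with the mice in the fit: it was 1189 without GA-aFuc mouse 2 (113 of them among the 133), 343 without GA-aFuc mouse 3 (56), 454 and 456 without GITR/Syn GA-aFuc mouse 2 or 3 (74 and 110) and 140 without the N297A mouse (129). Clusters 21, 18 and 22, all annotated as monocytes, held 54, 26 and 13 of the calls (0.868%, 0.402% and 0.183% of the genes tested there). In clusters 21 and 25 the fit set the spread of every gene to the common trend, and in cluster 18 it came near to that. Neither the number of calls nor the size of the p-values in those clusters can therefore be set against those in others.

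Arg1 was the gene called in the most clusters. It passed in 14 of the 24 clusters in which it was tested (edgeR, counted within each cluster), it had a positive log2 fold change in 24 of 24, and both GA-aFuc mice lay above all 4 other mice in 20 of 24. Counts of clusters, here and below, come from the same mice and are no replicates. They were not taken over all tested genes. Levels below are CPM (UMIs scaled to a common total) of the tested genes in that cluster and mouse, scaled by edgeR, and are given for GA-aFuc mice 2 and 3, for the Untreated mouse, and then for GITR/Syn GA-aFuc mice 2 and 3 and the N297A mouse. In cluster 21, monocytes led by interferon-induced Rsad2 and Ifit1, Arg1 stood at 951 and 2449 CPM against 59.3 in the Untreated mouse and 12.0, 121 and 108 in the 3 others. Both GA-aFuc mice were far above the rest, with a log2 fold change of 4.85 ± 0.40 (edgeR adjusted p = 1.15e-29, 54 of 6221 genes called). Arg1 UMIs were found in 43 of the 98 cells of the 3 compared mice.

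In cluster 22 (Cxcl9, Cxcl11, Acod1) the Arg1 levels were 1139 and 2295 CPM against 44.9, with 263, 151 and 33.6 in the other mice, a log2 fold change of 5.25 ± 0.52 (edgeR adjusted p = 1.15e-05). In cluster 18 they were 705 and 1075 CPM against 119, and 20.1, 156 and 93.8 (edgeR adjusted p = 8.19e-07). In cluster 7, monocytes with Ly6c2 and Ccr2, they were 794 and 1091 CPM against 127, and 84.0, 203 and 153 (edgeR adjusted p = 3.63e-05, 0.0269% of genes called). The same order of mice, GA-aFuc above all others, was seen in monocyte cluster 0, led by the activin subunit Inhba and the nitric oxide synthase Nos2: 3271 and 4109.9 CPM against 674, and 1206, 1599 and 225 (log2 2.45 ± 0.34, edgeR adjusted p = 0.0372, 0.0249% of genes called). Cluster 0 had the highest Arg1 level in the Untreated mouse among all clusters tested and the smallest fold change among those called.

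Macrophage clusters of very different content showed the same direction. In cluster 17, a DNA-replicating cluster with Rrm2 and Pclaf, Arg1 stood at 381 and 262 CPM against 10.8, and 39.1, 23.3 and 49.5 (log2 4.90 ± 0.46, edgeR adjusted p = 4.97e-05, 0.0113% of genes called). In cluster 6, led by the interferon-γ targets Gbp2b, Cxcl9 and Iigp1, it stood at 398 and 421 CPM against 31.8, and 30.4, 33.1 and 43.2 (edgeR adjusted p = 7.53e-06). In cluster 11, which Arg1 and the low-oxygen gene Bnip3 define, it stood at 1449 and 3957 CPM against 270.4, and 329, 202 and 298 (edgeR adjusted p = 0.018). Clusters 3 (340.1 and 377 against 55.5 CPM), 4 (308 and 578 against 40.7), 5 (107 and 567 against 16.3), 10 (128 and 124 against 15.4), 25 (51.8 and 274 against 14.1) and 30 (450.1 and 1509 against 82.6) completed the 14. Arg1 was 1 of 3 genes called in cluster 3 (0.0342%), 1 of 4 in cluster 4 (0.0419%), and the 1 gene called in clusters 5 (0.0112%) and 10 (0.0122%). A single cell gave 41.3% of the Arg1 UMIs of the compared mice in cluster 5, 32.2% in cluster 25, 27.2% in cluster 10 and 25.4% in cluster 3, and at most 22.6% in the other called clusters. Of all 133 pairs, 31 had over 25% of their UMIs in 1 cell. In cluster 25 the call was lost without GA-aFuc mouse 3, where the log2 fold change fell to 1.87 (edgeR adjusted p = 0.999), and without either GITR/Syn GA-aFuc mouse. In cluster 5 it dropped from 4.33 to 2.71 without GA-aFuc mouse 3 and was kept, and in cluster 4 it was lost without GITR/Syn GA-aFuc mouse 3 (edgeR adjusted p = 0.0602).

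**Figure D3:**
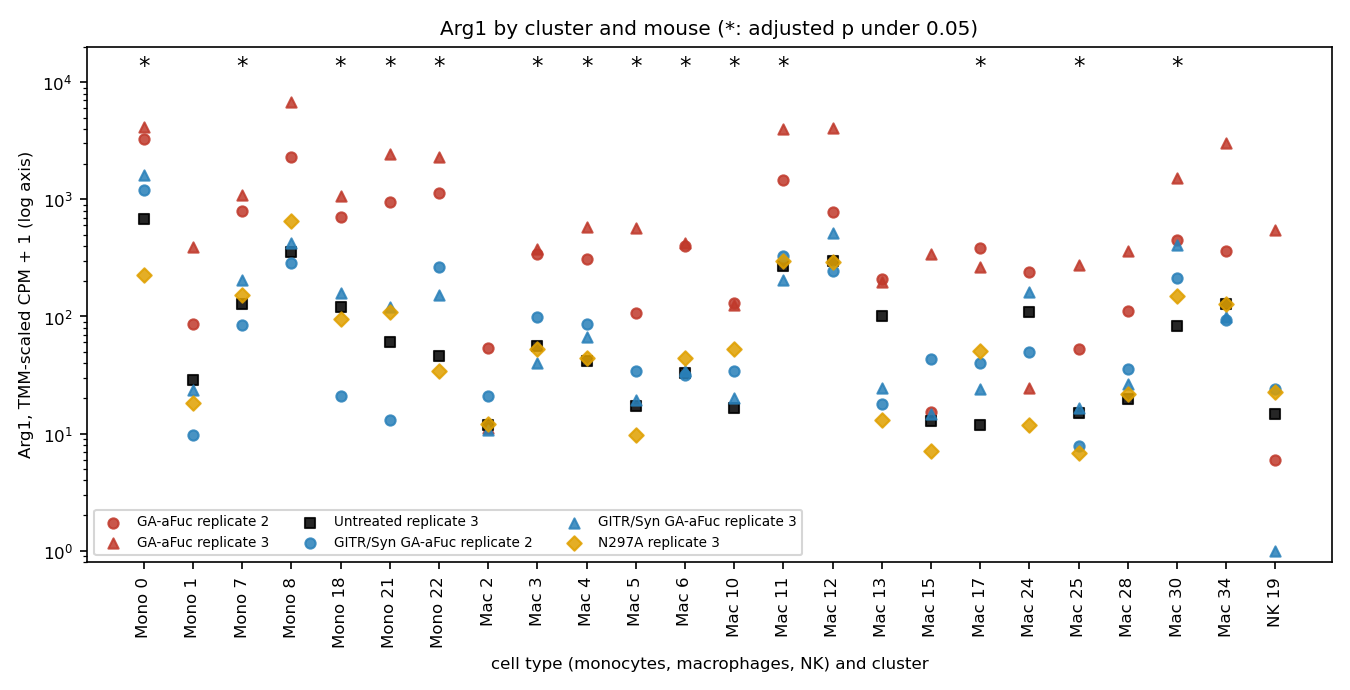
Arg1 level (CPM + 1, log axis) in each of the 24 clusters in which it was tested, 1 symbol per library 2 mouse, with a star over clusters where it passed. In clusters 21 and 22 the GA-aFuc mice lie at 951 to 2449 CPM and the Untreated mouse at 59.3 and 44.9; in clusters 2 and 24 the symbols overlap.

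In clusters where Arg1 was not called, its 2 GA-aFuc mice often disagreed. In cluster 12 it stood at 785 and 4079 CPM against 295, in cluster 34 at 364 and 3032 against 126, and in monocyte cluster 8 at 2298 and 6791 against 354 (edgeR adjusted p = 0.0798). Both GA-aFuc mice were above the Untreated mouse in these 3 clusters, but they lay far from each other. In clusters 2 (53.1 and 10.2 against 10.7 CPM) and 24 (237 and 23.3 against 107) they fell on both sides of the Untreated mouse. GA-aFuc mouse 3 was above GA-aFuc mouse 2 in 19 of the 24 clusters. Arg1 was near background in lymphocytes: over all CD8 T cells it stood at 12.3 and 6.23 CPM of all UMIs against 10.2, and over NK cells at 9.14 and 296 against 9.71, where 4 cells of 49 gave the 162 UMIs of the high value. The sum of 8 neutrophil markers stood, over the 7 monocyte clusters, at medians of 258 and 247 CPM of all UMIs in GA-aFuc mice 2 and 3 and at 173 in the Untreated mouse, with ranges of 64.8 to 384, 91.5 to 1003 and 67.4 to 363. Over these clusters together, each of the 8 was highest in GA-aFuc mouse 3 among the compared mice. Acod1, which monocytes also make, gave the most of the sum (179 and 251 against 123 CPM), followed by Csf3r (47.4 and 56.3 against 50.9). S100a8 stood at 10.99 and 50.7 against 4.15 CPM, S100a9 at 1.03 and 41.5 against 0.277, and Cxcr2 at 1.37 and 5.22 against 0.553. Retnlg, G0s2 and Mmp9 stood at 0 to 4.35 CPM. In the 17 macrophage clusters the medians of the sum were 95.7, 93.2 and 111 CPM. The part of this RNA in the results was not tested.

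A test of whether the Arg1 change differed between clusters (edgeR interaction term, not a permutation test) did not pass in macrophages (p = 0.477, adjusted 0.999) or in monocytes (p = 0.0162, adjusted 0.891).

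The genes called in at least 4 clusters were all higher in GA-aFuc: Arg1, Ccl24, Mrc1, Slc7a2, Cd36 and Pdcd1lg2. Ccl24 encodes eotaxin-2, Mrc1 the mannose receptor CD206, Slc7a2 a transporter of arginine, Cd36 a scavenger receptor that takes up fatty acids, and Pdcd1lg2 PD-L2, a ligand of PD-1. Of these, Cd36, Mrc1 and Pdcd1lg2 were in the RefSeq promoter table used here (build GRCm38.p6). Their promoters are shown from 250 bases before to 50 after the annotated start, with matches to TTCNNNNGAA, the spacing known for STAT6, in capitals. These 3 genes were picked only because they were called in at least 4 clusters and were in that table. The windows are chr5:17835847-17836146 on the minus strand for Cd36, chr2:14229164-14229463 on the plus strand for Mrc1 and chr19:29410669-29410968 on the plus strand for Pdcd1lg2.
Cd36: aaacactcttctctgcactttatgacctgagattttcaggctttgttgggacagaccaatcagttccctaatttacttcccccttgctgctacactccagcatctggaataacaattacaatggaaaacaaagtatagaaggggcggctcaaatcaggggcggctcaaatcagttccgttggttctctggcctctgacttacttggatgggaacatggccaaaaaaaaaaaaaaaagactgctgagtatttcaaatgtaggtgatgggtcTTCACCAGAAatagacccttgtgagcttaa
Mrc1: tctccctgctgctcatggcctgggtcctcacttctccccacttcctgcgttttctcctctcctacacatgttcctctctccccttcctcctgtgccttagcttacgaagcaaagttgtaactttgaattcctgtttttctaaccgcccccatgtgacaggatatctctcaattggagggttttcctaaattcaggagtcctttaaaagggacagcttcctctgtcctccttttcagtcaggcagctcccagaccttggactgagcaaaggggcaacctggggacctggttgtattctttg
Pdcd1lg2: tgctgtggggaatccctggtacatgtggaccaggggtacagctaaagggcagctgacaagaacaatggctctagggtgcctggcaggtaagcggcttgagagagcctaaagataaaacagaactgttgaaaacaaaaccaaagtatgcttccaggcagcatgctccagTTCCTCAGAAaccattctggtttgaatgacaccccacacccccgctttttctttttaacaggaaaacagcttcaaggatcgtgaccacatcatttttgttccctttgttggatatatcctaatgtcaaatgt
Cd36 and Pdcd1lg2 held 1 match each (TTCACCAGAA and TTCCTCAGAA) and Mrc1 none, on either strand, and 6.95% of 32851 promoters held at least 1. None of the 3 held ACGTG, the core of the hypoxia element (19.6% of promoters), or TGAGTCA, the AP-1 site (5.2%). A match describes the letters of the window only.

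Ccl24 was called in 6 clusters and had a positive log2 fold change in 15 of 15. The Untreated mouse stood at 0 to 4.64 CPM in all of these but cluster 8 (17.3). The low-count filter thus kept Ccl24 mostly where other mice had counts, and the sign count is no separate support. The same limit holds for sign counts given below of genes low in the Untreated mouse, such as Slc7a2, Pdcd1lg2 and Mgl2. In clusters 5 and 12 GA-aFuc mouse 2 had 0 CPM, and in cluster 17 GA-aFuc mouse 3 did, so those signs rested on 1 mouse. In cluster 22 Ccl24 stood at 288 and 799 CPM in the GA-aFuc mice, at 0 UMIs in the Untreated mouse and at 0, 1.59 and 3.36 CPM in the others. Against a floor of 3 UMIs in the Untreated mouse it was at least 89.7-fold higher (edgeR adjusted p = 1.15e-05), from 25 of 114 cells with a UMI. In cluster 6 it stood at 72.7 and 112 CPM against 2.44, and 2.54, 0.972 and 2.70, a ratio of 35.4 (95% counting interval 9.62 to 295, edgeR adjusted p = 0.000207). In clusters 3, 11, 18 and 21 between 45.9% and 67.7% of all its UMIs came from 1 cell, and in clusters 18 and 21 the call was lost without GA-aFuc mouse 3 (edgeR adjusted p = 0.685 and 0.885). In cluster 3 it stood at 40.8 and 34.3 CPM against 1.88, in cluster 11 at 217 and 975 against 1.77, in cluster 18 at 36.9 and 345 against 2.01 and in cluster 21 at 51.0 and 399 against 2.69.

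Mrc1 was called in 5 clusters and had a positive log2 fold change in 25 of 25, with both GA-aFuc mice above the Untreated mouse in 22. Both were above all 4 other mice in only 9, since GITR/Syn GA-aFuc mice were often high too. In cluster 22 Mrc1 stood at 387 and 457 CPM against 19.2, and 99.1, 12.8 and 16.8 (log2 4.44 ± 0.68, edgeR adjusted p = 0.00341). Its call in cluster 21 rested on GA-aFuc mouse 3, at 198 CPM. GA-aFuc mouse 2 stood at 9.28 there, below the Untreated mouse at 13.5. In cluster 4, a DNA-replicating macrophage cluster, Mrc1 stood at 229 and 267 CPM against 36.5, but GITR/Syn GA-aFuc mice 2 and 3 gave 266 and 149. The N297A mouse, at 48.2 CPM, was low there like the Untreated mouse. In the dividing cluster 13 Mrc1 was the 1 gene called (0.0104%), at 175 and 91.3 CPM against 22.01, and 115, 59.3 and 95.8 in the others. Here the Untreated mouse alone was at the bottom.

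Slc7a2 was called in 5 clusters and was higher in 19 of the 20 in which it was tested. In cluster 22 it stood at 272 and 224 CPM against 8.54, and 89.8, 31.9 and 3.36 (log2 4.81 ± 0.63, edgeR adjusted p = 0.000454). In cluster 3, interferon-rich macrophages, it stood at 58.9 and 89.2 CPM against 7.53 (edgeR adjusted p = 0.00384), and in cluster 6 at 84.4 and 51.5 against 4.89 (edgeR adjusted p = 0.00915). In cluster 21 it had 0 UMIs in the Untreated mouse and was at least 15.8-fold higher, at 69.6 and 163 CPM. The 2 GA-aFuc mice were the top 2 of the library in each of these clusters.

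Pdcd1lg2 was called in 4 clusters and positive in 16 of 18. In cluster 22 it stood at 180.3 and 212 CPM against 38.4, and 37.2, 38.3 and 3.36 (log2 2.35 ± 0.40, edgeR adjusted p = 0.00983), and in cluster 18 at 116 and 188 against 28.2. In cluster 11 it stood at 65.0 and 50.8 CPM against 1.77, and 5.11, 3.57 and 1.73 in the others, a ratio of 33.9 (95% counting interval 5.89 to 1360, edgeR adjusted p = 0.0262). Cd36 was called in 4 clusters and positive in 25 of 25, and GA-aFuc mouse 3 exceeded GA-aFuc mouse 2 in all 25. It stood at 149 and 212 CPM against 21.4 in cluster 22 (edgeR adjusted p = 0.00413) and at 66.9 and 252 against 9.18 in cluster 30, where the call was lost without GA-aFuc mouse 3 (edgeR adjusted p = 0.278).

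**Figure D4:**
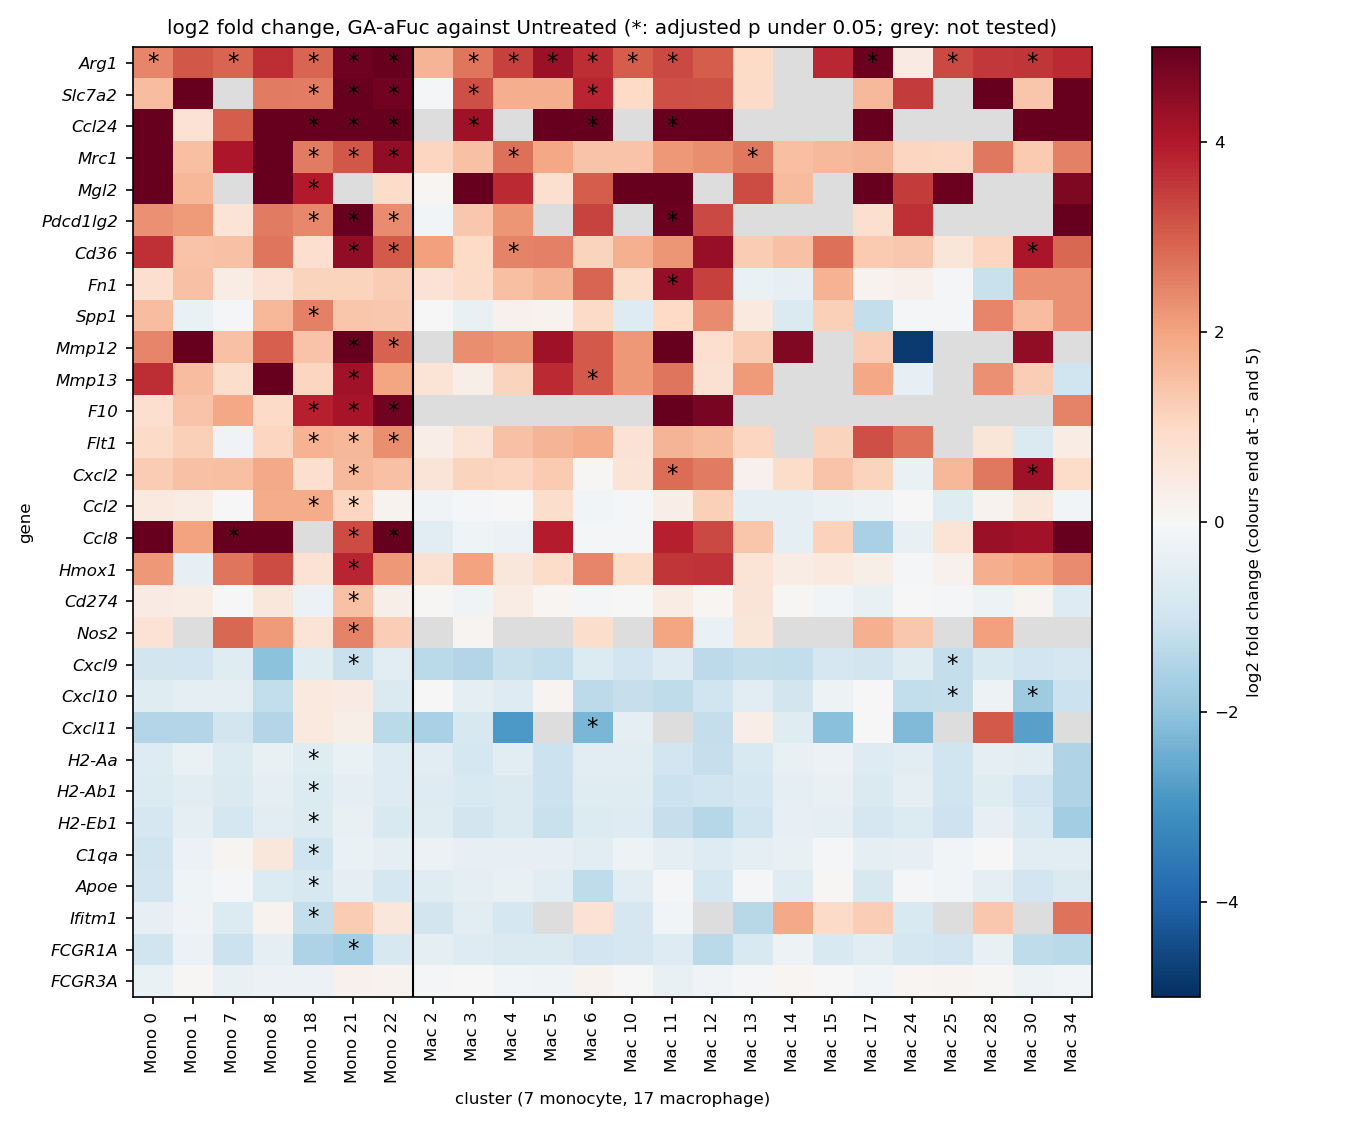
Log2 fold change (GA-aFuc against Untreated, as color that ends at -5 and 5) of genes named in the text in the 7 monocyte and 17 macrophage clusters, with a star on called pairs and grey where a gene was not tested. The row of Arg1 has 14 called clusters and those of Mrc1 and Cd36 are positive in every cluster tested.

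The genes called in clusters 22, 18 and 21 are given next. Cluster 22 had 12 genes higher and 1 lower of 7120. Besides those above, Flt1, a receptor of vascular endothelial growth factor, stood at 243 and 173 CPM against 40.6 (edgeR adjusted p = 0.0269), and the coagulation factor gene F10 at 36.1 and 97.7 against 2.14. Clec7a, the β-glucan receptor Dectin-1, which was picked after its values were seen, stood at 1454 and 1303 CPM against 453, and 449, 445 and 366, with both GA-aFuc mice apart from 4 mice that lay close together (log2 1.605 ± 0.30, edgeR adjusted p = 0.0217). Tagap, which encodes a GTPase-activating protein, was lower, at 16.8 and 13.2 CPM against 76.9 (edgeR adjusted p = 0.0373), and the N297A mouse was as high as the Untreated mouse, at 70.5.

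Cluster 18 had 20 genes higher and 6 lower of 6474. Mgl2, the lectin CD301b, which marks alternatively activated cells, stood at 79.5 and 126 CPM against 6.04, and 28.7, 22.3 and 26.8 (ratio 16.4, 95% counting interval 5.34 to 81.6, edgeR adjusted p = 9.04e-05), and it was positive in 18 of 18 clusters. Spp1, osteopontin, stood at 136 and 271 CPM against 34.2, but the N297A mouse at 158 lay between the GA-aFuc mice. The lower genes were 3 of MHC class II, Apoe, C1qa and Ifitm1. H2-Ab1 stood at 6128 and 4918 CPM against 8868, and 7924, 7339 and 6469 (log2 -0.68 ± 0.15, edgeR adjusted p = 0.00703), and Apoe at 2546 and 2455 against 4386. For H2-Ab1, H2-Eb1, H2-Aa and Apoe the call was lost without either GA-aFuc mouse, with adjusted p from 0.0888 to 0.998 and the same sign.

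Cluster 21 had 50 genes higher and 4 lower of 6221. Low-oxygen and glycolysis genes were among those higher. Pgk1, a glycolytic kinase, stood at 579.9 and 548 CPM against 205, and 316, 367 and 314 (log2 1.46 ± 0.34, edgeR adjusted p = 0.00345). Bnip3, which acts in mitophagy, stood at 116 and 201 against 45.8 (edgeR adjusted p = 0.0087). Cd274, the PD-1 ligand PD-L1, stood at 649 and 809.8 CPM against 264, and 394, 429 and 246 (log2 1.47 ± 0.32, edgeR adjusted p = 0.00143). All 3 had both GA-aFuc mice above the other 4. Nos2, the nitric oxide synthase that competes with arginase for arginine, stood at 78.9 and 179 CPM against 24.2, and 27.1, 67.3 and 11.3 (edgeR adjusted p = 0.000375). Hmox1 rested on GA-aFuc mouse 3: it stood at 64.9 and 719 CPM against 29.6, and without that mouse its log2 fold change fell from 3.80 to 1.13 (edgeR adjusted p = 0.997). The calls of Pgk1, Bnip3, Cd274 and Nos2 were also lost without GA-aFuc mouse 3 (adjusted p = 0.0612, 0.765, 0.203 and 0.765) and without GITR/Syn GA-aFuc mouse 2 (0.217, 0.531, 0.217 and 0.444), with the same sign. Arg1 in this cluster kept its call in each of these fits.

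Hbegf, a growth factor that binds the EGF receptor, was the other gene called in monocyte cluster 0. It stood at 120.0 and 151 CPM against 8.55, and 31.1, 22.5 and 11.7 (log2 3.96 ± 0.50, edgeR adjusted p = 0.03), with UMIs in 56 of 232 cells. In cluster 11, 5 genes passed (0.0638%); among them Fn1, fibronectin, stood at 127 and 424 CPM against 12.4, with the N297A mouse at 114, close to the lower GA-aFuc mouse. Cxcl2, a chemokine that attracts neutrophils, was higher in clusters 11, 21 and 30. In cluster 30, where 4 genes passed (0.0563%), it stood at 164 and 542 CPM against 18.4, but the N297A mouse gave 734 and the GITR/Syn GA-aFuc mice 216 and 189, so that the Untreated mouse was the low one.

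Of the 21 lower pairs, 5 were chemokines that interferon-γ induces. Cxcl9, picked after its values were seen, attracts T cells through CXCR3; it was called in 2 clusters and had a negative log2 fold change in 25 of 25, with both GA-aFuc mice below the Untreated mouse in 23. In cluster 25, where 7 genes passed (0.0991%), it stood at 855 and 196 CPM against 1265, and 838, 376 and 398 (log2 -1.19 ± 0.27, edgeR adjusted p = 0.0231). In cluster 21 it stood at 274 and 634 CPM against 1002, and 445, 638 and 612 (edgeR adjusted p = 0.0157). Both GA-aFuc mice lay below all 4 others in only 2 of the 25 clusters: the Untreated mouse stood high, and the antibody-treated mice did not separate. Cxcl10 was lower in cluster 30, at 372 and 139 CPM against 881, and 251, 274 and 208 (log2 -1.78 ± 0.35, edgeR adjusted p = 0.0139), with the same pattern, and without GA-aFuc mouse 3 its call was lost (-1.26, edgeR adjusted p = 0.677). Cxcl11 was lower in cluster 6, of which 5 genes passed (0.0563%), at 38.8 and 23.1 CPM against 158, and 44.8, 105 and 51.3 (log2 -2.28 ± 0.41, edgeR adjusted p = 0.0153).

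The human Fc receptor FCGR1A, the high-affinity IgG receptor CD64, was lower in cluster 21, at 74.2 and 71.6 CPM against 239.8, and 168, 149 and 217 (log2 -1.72 ± 0.38, edgeR adjusted p = 0.00164). Both GA-aFuc mice were below all 4 other mice. The log2 fold change was negative in 24 of 24 clusters, with both GA-aFuc mice below the Untreated mouse in 23 and below all 4 in 14, though the call in cluster 21 was lost without GA-aFuc mouse 3 or GITR/Syn GA-aFuc mouse 2 (edgeR adjusted p = 0.21 and 0.217). These clusters hold cells of the same mice, and such counts were not taken over all tested genes. The other human receptors were not called in any cluster: FCGR2A was positive in 15 of 26, FCGR2B in 6, FCGR3A in 12 and FCGR3B in 7. Human features made up 0.591% of library 2 UMIs, and reads shared between near-identical members such as FCGR3A and FCGR3B could be split in counting. In cluster 2, 3 genes passed (0.0343%), all lower: the monocyte gene Ly6c2 at 23.8 and 40.8 CPM against 108, the protease Napsa at 36.8 and 54.3 against 137, and Il12b, of whose UMIs 93.8% came from 1 cell.

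The lymphocyte clusters gave 1 call in all. In CD8 T cell cluster 16 the 1 gene called of 5075 (0.0197%) was Trbc2, a constant region of the T cell receptor β chain, at 1021 and 927 CPM against 2490.5, and 1406, 1657 and 1404 (log2 -1.35 ± 0.21, edgeR adjusted p = 0.0108), with the GA-aFuc mice below and the Untreated mouse above all others. Without GA-aFuc mouse 3 the adjusted p was 0.0662. Tnfrsf18, the target of the antibody, stood at 389.9 and 383 CPM against 279.8 in this cluster (log2 0.47) and at 132 and 147 against 138 in NK cluster 19, and it was called in neither. Foxp3 and the GITR ligand Tnfsf18 passed the filter on low counts in no tested cluster, and the regulatory T cells were too few for a test. In CD8 cluster 16 the cytotoxic genes had a median log2 fold change of 0.57, with 13 of 17 positive and 0 called, and the interferon-γ response genes one of -0.45. NK cluster 19 had 0 genes called of 4531, with 158 at an unadjusted p under 0.05 and 0 by DESeq2.

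**Figure D5:**
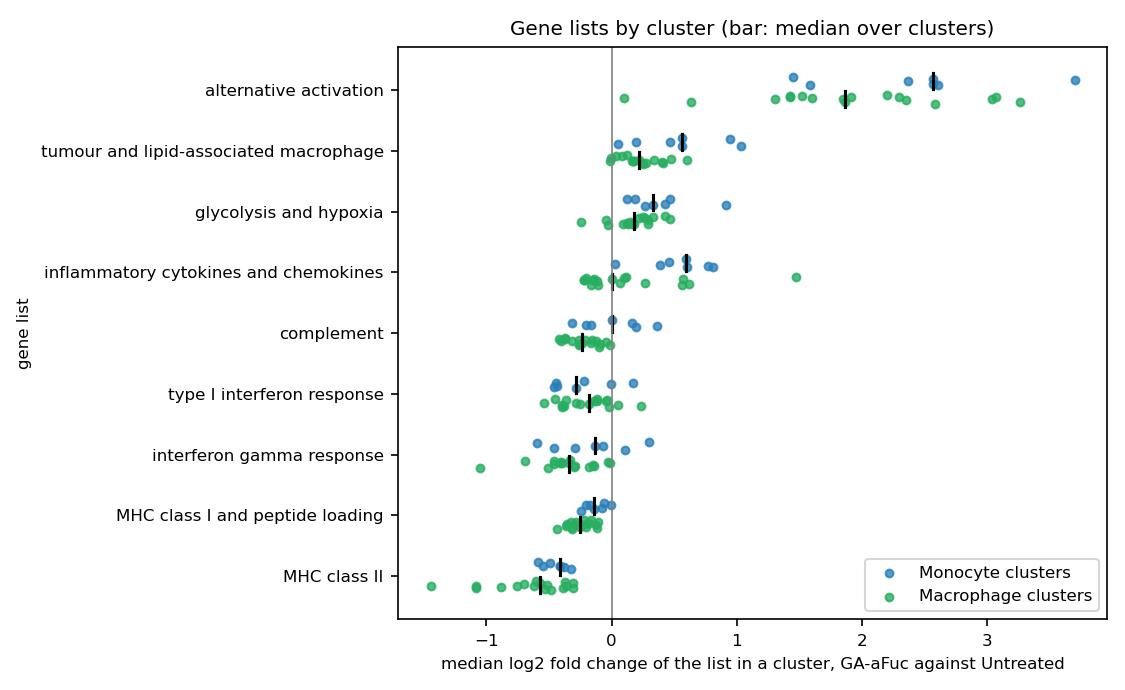
Median log2 fold change (GA-aFuc against Untreated) of each gene list, 1 symbol per monocyte or macrophage cluster, with the median over clusters as a bar and genes without Untreated UMIs set to their lower bound. Alternative activation lies above 0 in all 7 monocyte and all 17 macrophage clusters, and MHC class II lies below 0 in all of them.

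Gene lists were described by their medians and counts. The alternative activation list had a median log2 fold change, over monocyte clusters, of 2.57, above 0 in 7 of 7, with 20 of 63 gene and cluster pairs called higher. Over macrophage clusters it was 2.22, above 0 in 17 of 17, with 17 of 125 called higher, and 1.87 when genes without Untreated UMIs were set to their lower bound. The list includes genes already given above, among them Arg1, so its called pairs are largely the same calls counted again and no further support. The low-count filter could also keep a gene in a cluster through the GA-aFuc mice alone. The counts of clusters above 0 are therefore no separate support either. All-gene medians lay between -0.002 and 0.024. Taken mouse by mouse against the Untreated mouse, the list stood in monocytes at 0.94 and 2.33 in GA-aFuc mice and at 0.06, 0.02 and -0.16 in the other 3, and in macrophages at 0.75 and 1.46 against 0.36, 0.14 and 0.00. The GA-aFuc mice were above the other treated mice in both cell types.

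MHC class II genes had medians of -0.41 in monocyte clusters (3 of 64 pairs called lower) and -0.57 in macrophage clusters (0 of 157 called), below 0 in all 7 and all 17. This list did not separate GA-aFuc from other antibodies: in macrophages the GA-aFuc mice stood at -0.43 and -0.59, the GITR/Syn GA-aFuc mice at -0.26 and -0.55 and the N297A mouse at -0.75, so all 5 treated mice were below the Untreated one. Interferon-γ response genes behaved alike in macrophages, with a median of -0.34 (4 of 344 pairs called lower) and single mice at -0.05 and -0.81 against -0.27, -0.48 and -1.03. The glycolysis and hypoxia list, which lacks Aldoa because 2 features share that symbol, was above 0 in 7 of 7 monocyte clusters (median 0.33, 4 of 150 called higher) and in 14 of 17 macrophage clusters (median 0.18, 0 of 350 called). The tumour and lipid-associated macrophage list had medians of 0.57 in monocytes (6 higher and 1 lower of 103) and 0.23 in macrophages (3 higher of 255), and inflammatory cytokines 0.56 in monocytes (4 higher of 108) and 0.00 in macrophages (2 higher and 1 lower of 248). By mouse, these lists and the glycolysis list overlapped between GA-aFuc and the other treated mice in both cell types. In monocytes the tumour list stood at 0.13 and 0.69 in GA-aFuc mice against -0.27, 0.29 and 0.12. Inflammatory cytokines stood there at 0.18 and 0.51 against 0.00, 0.35 and 0.31. Glycolysis and hypoxia stood there at 0.18 and 0.41 against -0.10, 0.25 and 0.07. The heat shock and mitochondrial lists had medians over clusters of 0.11 and 0.04 in monocytes and of -0.01 and 0.02 in macrophages, with single macrophage clusters from -0.36 to 0.27 and from -0.29 to 0.25. No pair of either list was called, and the mitochondrial list split the GA-aFuc mice in monocytes, at 0.22 and -0.21.

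The difference of the response between clusters of 1 cell type was tested next. Of 8982 genes, 1 (0.0111%) passed in macrophages: Gzmc, a granzyme of cytotoxic lymphocytes. In cluster 25 it stood at 11.2 and 22.2 CPM against 273, and 88.7% of its UMIs there came from 1 cell. In monocytes 0 of 7167 genes (0.0%) passed, with 364 at an unadjusted p under 0.05. Without GA-aFuc mouse 2 the counts were 121 and 18, and without GA-aFuc mouse 3 they were 2 and 4. In simulated data of this size, with 100 genes altered by each factor in 1 cluster, the test found 50 at 4-fold and 91 at 8-fold for macrophages, with 3 false calls. For monocytes it found 61 and 90, with 23 false calls. Xist, the RNA of the inactive X chromosome, was called in clusters 18, 21 and 25, where GA-aFuc mouse 2 stood at 466, 455 and 339 CPM, GA-aFuc mouse 3 at 0, 0 and 11.1 and the Untreated mouse at 0, 5.39 and 4.02. GITR/Syn GA-aFuc mouse 2 was high as well, at 419, 361 and 404 CPM, and the other 2 mice stood at 0 to 6.21. Xist thus differed within both treatments that have 2 mice, which set the spread of the fit, and the part of sex in the other results was not tested.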

How the data were processed

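CD45+ cells sorted from MC38 tumours were pooled by hashtag into 2 10x Genomics 3′ libraries, per the labels' protocols. The deposited matrix of library 2 held raw UMI counts of 72308 features in 2979617 droplets, as the authors' Cell Ranger 9.0.0 run wrote them per the file headers, and the submitters' processing notes name GRCh38 and GRCm39; only its 10476 annotated cells were used, with the authors' treatment, cell type and cluster. No source used here says how doublets were treated, and no caller was run. Library 1 counts were not analysed here. Mice were runs of rising barcode, numbered in that order within a treatment. The labels do not say that mice of different treatments were paired.

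The members and gene lists were chosen with earlier results of these data known. Shares were tested with edgeR 4.0.16 quasi-likelihood on cell counts of 12 mice (treatment and library terms, 7 residual degrees of freedom). Expression was tested likewise on UMI counts summed per cluster and mouse over the 6 library 2 mice (2 residual degrees of freedom, low-count filter, TMM scaling, Benjamini-Hochberg within each cluster, threshold 0.05); the single Untreated and N297A mice were assumed to vary like the mice of the 2 other treatments. A difference between clusters was tested as an interaction with mouse as a block (32 and 12 residual degrees of freedom). DESeq2 1.42.0 and limma 3.58.1 (R 4.3.3) gave alternatives. The exact permutation test over the 6 mice within libraries cannot go below p = 0.111.

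Named genes were, per cluster, up to 3 called genes with the highest and 3 with the lowest fold change and no overlap, the genes called in the most clusters, list members with the smallest p, and always Arg1, Foxp3, the human FCGR genes, Tnfsf18 and Tnfrsf18; others are marked. List medians by mouse are differences of log2(CPM + 10). Intervals cover counting error only and are exact at 95%. In simulated data, 204 of 250 clusters changed 3-fold were recovered with 13 false calls among 2650. In simulations of each cluster's expression, 4 to 25 of 100 genes changed 2-fold and 73 to 92 of 100 changed 8-fold were recovered, with 2 to 16 false calls per cluster. Library 2 mice held 17176544 to 25808043 UMIs.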

Additional observations from a re-analysis of the deposited data

Results flagged for a closer look

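Gzmc, a granzyme gene of cytotoxic lymphocytes, stood out because its change differed between macrophage clusters by the test of the difference itself (edgeR adjusted p = 0.000215, 1 of 8982 genes). In cluster 25 it stood at 11.2 and 22.2 CPM in GA-aFuc mice 2 and 3 and at 273 in the Untreated mouse, with 6.85, 12.4 and 14.5 in the other 3 mice. The Untreated mouse alone was high, and 88.7% of the UMIs of the compared mice came from 1 cell.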

How the results depend on the processing

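The share of cluster 50 kept its sign in every fit tried, but it was called only with all clusters tested, with limma and without Untreated replicate 1. The number of clusters called was 0 with the 6 mice only, without the library term, with the share of the cell type, with TMM scaling, with clusters of at least 100 cells, with DESeq2 and with the exact permutation, and it ranged from 0 to 1 when compared mice were left out. For cluster 50 the log2 difference was -2.28 with the 6 mice only (edgeR adjusted p = 0.185), -2.45 without the library term (0.0616), -2.10 with TMM (0.0542), -2.22 with DESeq2 (0.258), -2.78 in library 2 alone, and -2.29 to -1.63 when mice were left out, and the ratio of mean shares was -2.50 with an exact permutation p of 0.111 (adjusted 0.899). The 133 gene and cluster pairs became 523 with the 3 compared mice only, 18 with DESeq2, 49 with at least 10 counts in each compared mouse, 36 without a filter, 6 in the 2 clusters with at least 50 cells, 208 with at least 10 cells (chosen after seeing the data), and 140 to 1189 when mice were left out. Arg1 passed in 5 clusters with DESeq2, 2 of 2 with at least 50 cells, 8 without a filter and 14 to 21 when mice were left out. Of 91 named pairs, DESeq2 lost 80, no filter 68, leaving out GA-aFuc replicate 3 lost 42, equal cells per mouse 37 and RLE scaling 1. One reversed: Xist in cluster 21, at -4.20 without GA-aFuc replicate 2, the GA-aFuc mouse with Xist counts there, and at 6.32 without GA-aFuc replicate 3. Genes differing between clusters were 121 and 2 in macrophages and 18 and 4 in monocytes without GA-aFuc replicate 2 or 3. Where the alternative does not itself use fewer genes, clusters or mice, the cause was not tested. No paired analysis was possible because the numbers of the mice only name runs of barcodes.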

Other observations

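Further clusters could be tested when 10 instead of 20 cells per compared mouse were asked for, a choice made after seeing the data. NK cluster 20 (33, 18 and 37 cells in GA-aFuc mice 2 and 3 and the Untreated mouse) had 4 genes higher and 22 lower of 6878. Interferon-induced genes were called in both directions there, and no list of them was tested. Usp18, which dampens interferon signalling, stood at 31.3 and 30.4 CPM against 176, and 55.5, 107 and 106 in the GITR/Syn GA-aFuc and N297A mice (log2 -2.50 ± 0.38, edgeR adjusted p = 0.000823). Rsad2, an antiviral enzyme, stood at 9.19 and 10.1 CPM against 79.3, and 21.3, 25.9 and 43.2 (edgeR adjusted p = 0.00243). Both GA-aFuc mice were below all 4 others for these genes, as they were for the receptor Klra8 (139.7 and 138 against 373, and 269, 366 and 273). Ifitm2, a membrane protein that blocks viral entry and is itself induced by interferon, was higher, at 511 and 715 CPM against 120.1, with 585, 599 and 173 in the others, so that the GITR/Syn GA-aFuc mice were as high as the GA-aFuc mice.

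CD8 T cell cluster 38 (21, 11 and 31 cells) had 14 genes higher and 5 lower of 5847, in a fit without GITR/Syn GA-aFuc mouse 2 and the N297A mouse, which had too few cells. Granzyme B (Gzmb) stood at 4044 and 3209.6 CPM against 1270.1, and 2346 in the GITR/Syn GA-aFuc mouse (log2 1.52 ± 0.28, edgeR adjusted p = 0.00019). Granzyme F (Gzmf) stood at 4484 and 724 CPM against 141, and 11.3. In the fit of cluster 38 GA-aFuc was the only treatment with 2 mice to show the spread between mice. Xist was called in it too, at 922 and 0 CPM against 0 in the Untreated mouse. The p-values of this cluster can therefore not be set against those of others. Rsad2, lower in NK cluster 20, was higher here, at 51.4 and 152 CPM against 20.8, and 45.2 (log2 2.11 ± 0.54, edgeR adjusted p = 0.0335). Ifit1, Ifi204 and Oasl2, also induced by interferon, were called higher too, the first at a log2 fold change of 2.46 and Ifi204 at 2.20, while Oasl2 stood at 19.3 and 72.9 CPM against 0, and 52.7. In monocyte cluster 27 (18, 30 and 30 cells) the 5 genes called were all lower, among them Apoe at 858 and 659.8 CPM against 2310.0, and 1899, 1286 and 1009.6 (log2 -1.62 ± 0.29, edgeR adjusted p = 0.00812), and the complement gene C1qa at 102 and 51.7 against 392.1, and 139, 112 and 119. Arg1 was called in 2 of these further clusters, monocyte cluster 41 (398 and 3634 CPM against 128, edgeR adjusted p = 0.00371) and cluster 45 (401 and 464 against 41.9, edgeR adjusted p = 3.12e-07). Xist was also called in cluster 45, at 257 and 0 CPM in GA-aFuc mice 2 and 3 against 0. The size of the p-values there can therefore not be set against other clusters. In cluster 9, the cluster whose share was high in 1 GA-aFuc mouse, 0 of 7267 genes were called by edgeR, with 358 at an unadjusted p under 0.05.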
